A study of Sus scrofa with 6 samples.

Results

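The genes described here are the cytokines, the chemokines and their receptors on the Affymetrix Pig Genome Array, followed across 6 arrays of pig cells. They were chosen by gene symbol, with earlier results of these data known. The symbols were those of interleukins and their receptors, the CXCL and CCL chemokines, and the CXCR and CCR receptors. Also taken were the TNFSF ligands and TNFRSF receptors, the CSF, IFNA and IFNG families, TNF and LIF. CXCL2, CXCL8 and IL6R were left out. Of 6765 genes that the platform annotation names with 1 symbol, 72 were members, measured by 84 of 23999 probe sets. A member with several probe sets (11 genes) was taken from the probe set with the highest mean over the 6 arrays. The 72 comprised 44 ligands, 27 receptors and 1 soluble binding protein, IL18BP. By gene ID, all 72 were found under the same symbol in RefSeq's pig annotation (Sscrofa11.1).

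Total RNA was measured on 1 array per sample in 4 lines labelled as pluripotent induced pluripotent stem (iPS) cells and 2 samples labelled somatic. PS24 carried SSEA1, SSEA3 and SSEA4, 30AC5 carried SSEA1, and iPF4-2 and iPSCs-w carried SSEA3 and SSEA4, which are stage-specific embryonic antigens, glycan epitopes of the cell surface. PAFSC is a culture of porcine amniotic fluid stem cells and PEF one of porcine embryo fibroblasts. The series set iPS lines of the depositing laboratory beside lines from others, and the labels do not tell which is which. All cells were described as grown in DMEM with fetal bovine serum. The iPS lines were kept on feeder layers of mitotically inactive mouse embryonic fibroblasts from ICR mice, and the part of mouse RNA in their extracts was not tested. With 1 sample per line, a limma p-value reflects the spread among these samples alone, and that spread may be technical. Each value is a log2 value relative to a zero of its own probe set, so arrays can be compared for a gene but genes cannot be compared for their level. In bulk RNA, fewer cells that express a gene and less RNA per cell cannot be told apart.

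The lines were not alike in the markers that go with their labels. POU5F1, a core pluripotency factor, was 0.07 in PS24 and -0.07 in 30AC5, and 3.68 in iPF4-2 and 3.61 in iPSCs-w, against 1.09 in PAFSC and -0.50 in PEF. The 2 SSEA1-labelled lines thus lay below PAFSC for this gene. Values on the PAFSC array ran high, as described below, with a median of 0.70 over all probe sets and of 1.93 over 17 control probe sets. Its value for POU5F1 and its median for the fibroblast genes therefore do not by themselves show higher expression. Of 15 listed fibroblast genes 13 were measured, with a median of -0.76 to 0.07 in the iPS lines, against 2.10 in PAFSC and 2.73 in PEF. In PAFSC, DCN was 6.94, S100A4 5.19, FBN1 5.10 and COL5A2 4.07, above the highest of the 17 control probe sets (3.52). The remaining measured fibroblast genes ran from 0.44 to 2.92 there, and the cause was not tested. In iPF4-2 the 13 genes ran from -3.77 for PRRX1, a mesenchymal transcription factor, to 3.77 for LUM, with DCN at 2.34 and POSTN at 3.01, matrix genes of fibroblasts, and the other 9 between -0.37 and 0.58.

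Cytokines and chemokines are secreted proteins through which cells instruct one another, and they act through receptors that sort into a few structural families. Chemokines steer migration through G protein-coupled receptors, interleukins and interferons signal mostly through JAK and STAT proteins, and TNF family ligands act on trimeric receptors that couple to NF-kappaB or to caspases. In stem cell culture LIF is known for holding mouse embryonic stem cells in the naive state, CXCL12 and CXCR4 for homing, and fibroblasts are known as a source of CCL2, CXCL12 and IL6.

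**Figure D1:**
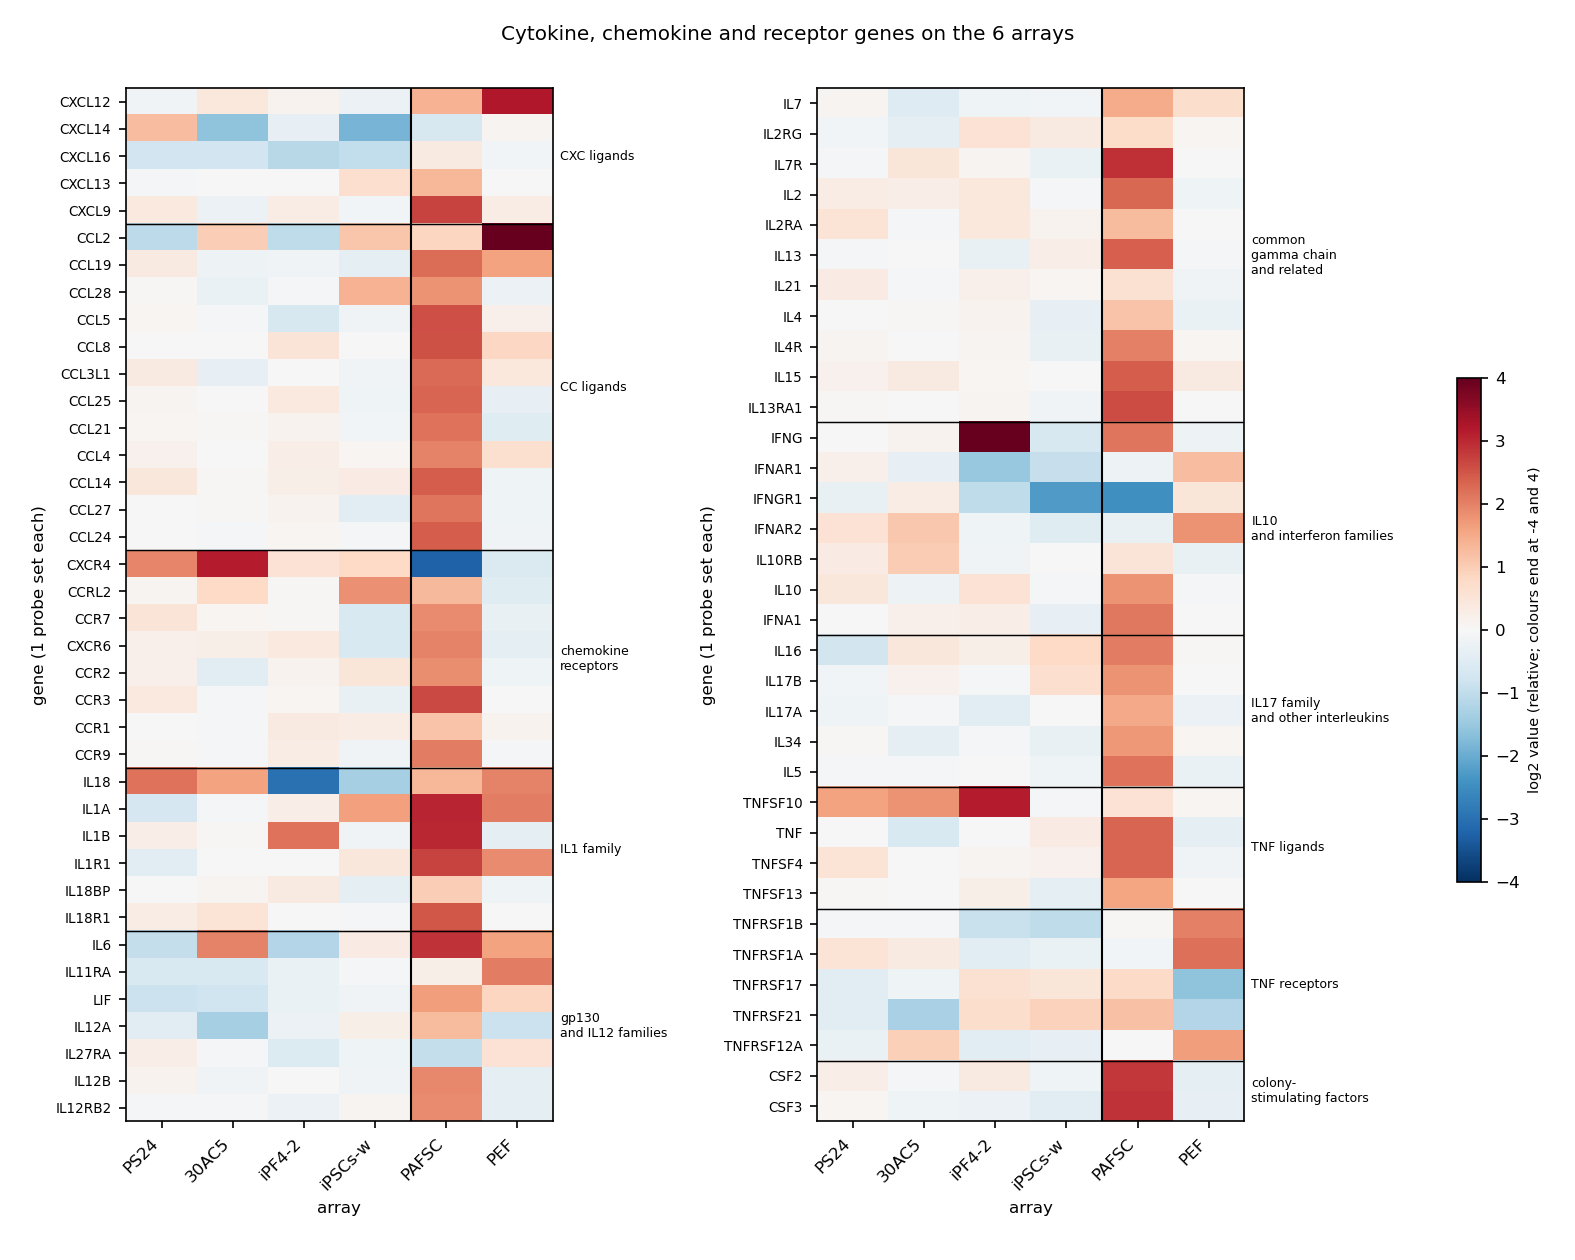
Log2 values of the 72 genes (rows, grouped by family) on the 4 iPS arrays, PAFSC and PEF (columns), with red above and blue below each probe set's own zero. Most rows are pale on 5 arrays and red on PAFSC, where 54 of the 72 genes lay above 1, against 13 in PEF and 3 to 6 in the iPS lines.

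Outside the PAFSC array the genes were flat about as often as other probe sets, and ranged widely more often. Over the other 5 arrays 42 members had a range under 1 log2 unit, or 58.3%, beside 54.6% of all probe sets. A range of at least 2 was seen in 21 members (29.2%), beside 15.5% of all probe sets. The highest of the 5 arrays among these 21 was PEF for 11, iPF4-2 for 4, and PS24, 30AC5 and iPSCs-w for 2 each. For all probe sets, a range of at least 2 with PEF highest had a share of 5.75%, against 15.3% of the members, and with iPF4-2 highest 1.96%, against 5.56% of the members. With PS24, 30AC5 or iPSCs-w highest it had a share of 1.72%, 2.5% or 3.52%, against 2.78% of the members for each. The 21 genes comprised 9 ligands and 12 receptors.

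PAFSC stood apart as an array. The SD over all probe sets was 2.01 there, against 0.808 in PEF and 0.610 to 0.729 in the iPS lines. The median of the 72 genes was 0.05 in PS24 and -0.01 in 30AC5, and 0.06 in iPF4-2 and -0.11 in iPSCs-w, against 1.88 in PAFSC and -0.01 in PEF, while the median of all probe sets was 0.70 in PAFSC and between -0.06 and 0.05 elsewhere. The 17 probe sets that the array names as tag controls had a median of 1.93 in PAFSC, with a range of 1.06 to 3.52, against -0.14 in PEF and -0.04 to 0.22 in the iPS lines. For the 42 members that were flat on the other arrays, PAFSC exceeded the mean of those arrays by a median of 2.11 (0.53 to 3.11), beside 1.92 (0.90 to 3.51) for the tag controls and a median of 1.27 for all 13096 flat probe sets. The genes and the controls overlapped over most of these ranges. PAFSC lay above the other 5 arrays for 55 members (background 50.1%) and below them for 3, CXCR4, IFNGR1 and IL27RA (background 27.7%). The mean of 5′ minus 3′ probe sets for GAPDH, actin and EF1A, a sign of RNA integrity, was 1.90 in PAFSC, -1.90 in PS24 and -0.03 to 0.19 in the other arrays, and its part in the results was not tested. The comparisons below are therefore given with and without PAFSC.

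**Figure D2:**
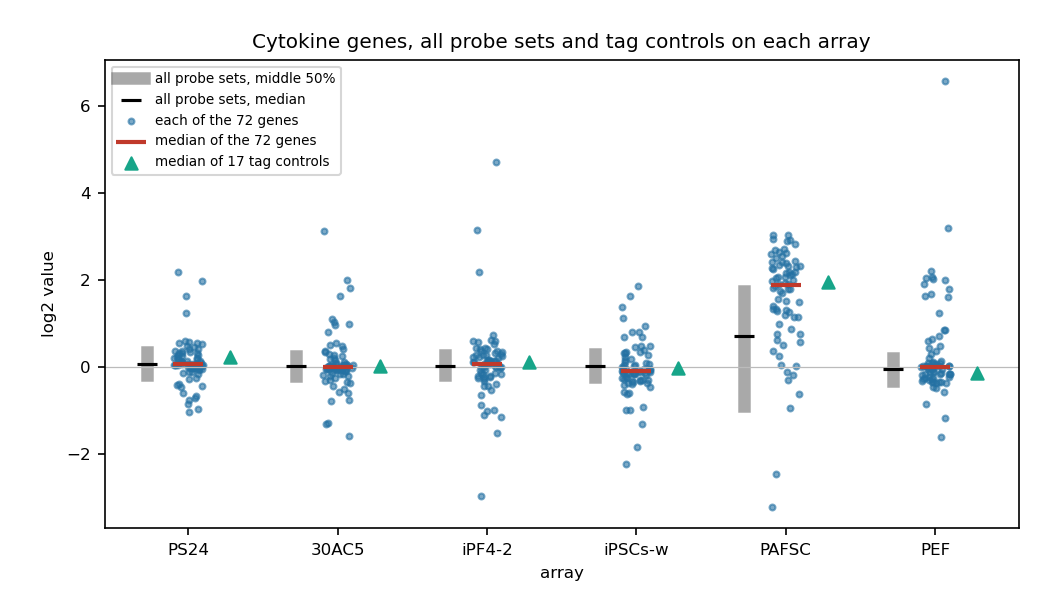
Log2 values by array: the grey bar spans the middle 50% of all probe sets with their median as a black dash, each blue point is 1 of the 72 genes, the red dash is their median and the green triangle is the median of the 17 tag controls. On PAFSC the genes' median of 1.88 and the controls' median of 1.93 coincide, and on the other 5 arrays both lie near 0.

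The labels gave 3 comparisons, and every difference below is in log2 units, iPS lines minus somatic samples or SSEA1-labelled minus SSEA3/SSEA4-only lines (the class difference). With both somatic samples, limma called 0 of the 72 genes and 6 of 23999 probe sets (0.025%) between the iPS lines and the somatic samples. At an unadjusted p under 0.05 the members numbered 14, beside 13.7% of all probe sets. All 4 lines lay below both somatic samples for 14 members (background 9.99%) and above both for 1, CXCR4 (background 11.9%). The median difference was -0.91 over the members and -0.34 over all probe sets. With PAFSC left out and PEF as the 1 somatic sample, whose spread is taken to equal that of the iPS lines, limma called 1 member, CXCL12, and 0.567% of all probe sets. The median difference of the members from PEF was 0.08, beside 0.13 over all probe sets, so the negative median against both somatic samples was not seen against PEF alone. With PEF left out instead, limma called 47 members lower (background 38.9%) and 1 higher (background 20.7%) in the iPS lines than in PAFSC. Between the 2 SSEA1-labelled lines and the 2 SSEA3/SSEA4-only lines, limma called 0 of the 72 genes and 0% of all probe sets, and 1 member, IL18, had an unadjusted p under 0.05 (background 2.84%). Without PAFSC that comparison had 10 members with an unadjusted p under 0.05 (background 11.1%) and again 0 called by limma (background 0.0167%).

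Against PEF, 13 members lay below it in all 4 lines by a mean of at least 1 log2 unit (background 8.29%) and 3 lay above it (background 6.9%). The 13 were the ligands CCL19, CCL2, CXCL12, IL1A and LIF and the receptors IFNAR1, IFNAR2, IFNGR1, IL11RA, IL1R1, TNFRSF12A, TNFRSF1A and TNFRSF1B, and the 3 were the receptors CCRL2, CXCR4 and TNFRSF17. These lists hold for the chosen probe sets. By a second probe set the difference was -0.14 for CXCL12, 0.11 for IL1R1 and -0.68 for IFNAR2. It was -2.73 for IL1A, -2.13 for TNFRSF12A and -2.06 for IL4R, which is not among the 13. Without the size limit, 21 members lay below PEF in every line (background 19.1%) and 16 above it (background 32.4%). Fibroblast markers moved with these counts: 11 of the 13 measured fibroblast genes also lay below PEF in all 4 lines, and their part in the result was not tested.

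**Figure D3:**
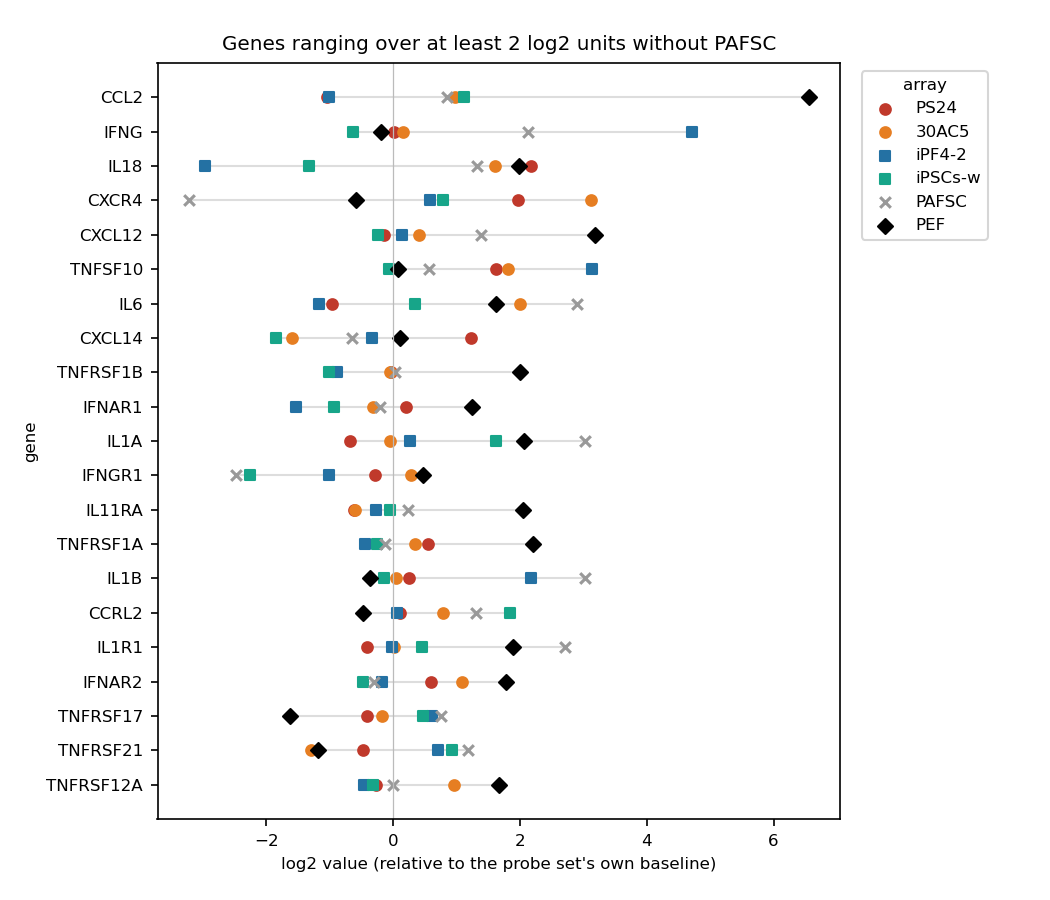
The 21 genes whose range over the 5 arrays without PAFSC was at least 2 log2 units, sorted by that range, with 1 symbol per array (horizontal axis: log2 value). PEF (black diamonds) is the rightmost of the 5 for 11 genes, led by CCL2 at 6.56, and iPF4-2 (blue squares) is rightmost for 4, among them IFNG at 4.71.

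Among the CXC ligands, CXCL12, the chemokine that binds CXCR4, was -0.15 in PS24 and 0.41 in 30AC5, and 0.15 in iPF4-2 and -0.24 in iPSCs-w, against 1.39 in PAFSC and 3.19 in PEF. PEF was the highest array, and the iPS lines lay together near 0. CXCL12 fell in the iPS lines relative to PEF, by 3.15 log2 units with an SE of 0.34 (limma adjusted p = 0.0370). No other member passed the threshold. Against both somatic samples the difference was -2.25 (SE 0.60, limma adjusted p = 0.241). A second probe set annotated as CXCL12 was 0.27 in PS24 and 0.17 in 30AC5, and 0.56 in iPF4-2 and -0.67 in iPSCs-w, against 2.71 in PAFSC and 0.22 in PEF, where PEF did not stand out and the difference from PEF was -0.14. With the mean of both probe sets the difference was -1.65 (limma adjusted p = 0.195), and quantile normalization gave -2.36 (limma adjusted p = 0.134), so the call depends on the probe set and on the deposited scaling. Leaving out any 1 of the 4 lines also ended it, with limma adjusted p between 0.0831 and 0.117 and differences of -3.27 to -3.06.

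CXCR4, the receptor of CXCL12, was higher in the lines, at 1.97 in PS24 and 3.13 in 30AC5, and 0.59 in iPF4-2 and 0.79 in iPSCs-w, against -3.22 in PAFSC and -0.59 in PEF. Every iPS line lay above both somatic samples, and the 2 SSEA1-labelled lines lay above the other lines. The difference was 3.53 (SE 0.93, limma adjusted p = 0.240) against both somatic samples. It was 2.21 against PEF and 4.84 against PAFSC with PEF left out, each with 1 somatic array. PAFSC, where most members were high, had its lowest member value in CXCR4. That array was spread both ways, and 27.7% of all probe sets lay below the other 5 arrays there. The SSEA1-labelled lines differed from the SSEA3/SSEA4-only ones in CXCR4 by 1.85 (SE 0.94, limma adjusted p = 1.00); without PAFSC the SE was 0.45 (limma adjusted p = 0.267).

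The other CXC ligands showed no common order. CXCL14, a chemokine of epithelia, was 1.23 in PS24 and -1.60 in 30AC5, and -0.34 in iPF4-2 and -1.85 in iPSCs-w, against -0.64 in PAFSC and 0.11 in PEF. PS24 was the highest array and iPSCs-w the lowest, so that the 2 lines of each marker class lay far apart; a second probe set had the same order of lines, at 1.54 in PS24 and -2.65 in 30AC5, and -0.48 in iPF4-2 and -2.70 in iPSCs-w, against -2.64 in PAFSC and -0.13 in PEF. CXCL16, the membrane-bound ligand of CXCR6, was -0.78 in PS24 and -0.77 in 30AC5, and -1.12 in iPF4-2 and -0.99 in iPSCs-w, against 0.35 in PAFSC and -0.12 in PEF. All 4 lines lay below both somatic samples, and the difference from PEF was -0.79 (SE 0.28, limma adjusted p = 0.355), small beside those of CXCL12 and CCL2. CXCL13 and CXCL9, attractants of B cells and T cells, ranged over 0.74 and 0.62 on the 5 arrays.

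CCL2, which draws monocytes through CCR2, had the widest range of all 72 genes. It was -1.04 in PS24 and 0.97 in 30AC5, and -1.01 in iPF4-2 and 1.12 in iPSCs-w, against 0.86 in PAFSC and 6.56 in PEF. PEF lay above every other array by more than 5 log2 units, and the lines split within both marker classes, with 30AC5 and iPSCs-w above PS24 and iPF4-2. The iPS mean was 0.01 ± 1.20 (SD, n = 4), and the difference from PEF was -6.55 (SE 1.03, limma adjusted p = 0.0888), so this size did not pass the threshold with 1 array for PEF. Against both somatic samples the groups overlapped, since PAFSC lay below 30AC5 and iPSCs-w.

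CCL19, a ligand of CCR7 in lymphoid tissue, was 0.36 in PS24 and -0.20 in 30AC5, and -0.14 in iPF4-2 and -0.38 in iPSCs-w, against 2.23 in PAFSC and 1.60 in PEF. Both somatic samples lay above all lines, with a difference of -2.003 (SE 0.48, limma adjusted p = 0.212), and of -1.68 (SE 0.36, limma adjusted p = 0.158) from PEF alone. CCL8, a monocyte attractant, was 0.03 in PS24 and 0.03 in 30AC5, and 0.52 in iPF4-2 and 0.0045 in iPSCs-w, against 2.53 in PAFSC and 0.84 in PEF, and CCL5, a T cell attractant, was 0.08 in PS24 and -0.05 in 30AC5, and -0.65 in iPF4-2 and -0.14 in iPSCs-w, against 2.59 in PAFSC and 0.20 in PEF. For these 2 genes the distance from the somatic samples came mostly from PAFSC: CCL8 differed by -1.54 (SE 0.58, limma adjusted p = 0.336) from both and -0.70 (SE 0.32, limma adjusted p = 0.465) from PEF, and CCL5 by -1.59 (SE 0.69, limma adjusted p = 0.366) from both and -0.40 (SE 0.36, limma adjusted p = 0.725) from PEF.

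CCL28, a mucosal chemokine, was 0.03 in PS24 and -0.26 in 30AC5, and -0.03 in iPF4-2 and 1.38 in iPSCs-w, against 1.79 in PAFSC and -0.25 in PEF. Among the 5 arrays other than PAFSC only iPSCs-w stood out. Among the CC ligands above PEF in every line, CCL21 and CCL14 had the largest mean differences. CCL21, the other ligand of CCR7, was 0.07 in PS24 and 0.05 in 30AC5, and 0.14 in iPF4-2 and -0.10 in iPSCs-w, against 2.18 in PAFSC and -0.50 in PEF, with a difference from PEF of 0.53 (SE 0.25, limma adjusted p = 0.487). CCL14, a ligand of CCR1, was 0.46 in PS24 and 0.05 in 30AC5, and 0.22 in iPF4-2 and 0.32 in iPSCs-w, against 2.43 in PAFSC and -0.16 in PEF, with a difference from PEF of 0.42 (SE 0.28, limma adjusted p = 0.626). These steps are small, and both genes were among the members with a range under 1. CCL3L1, a macrophage inflammatory chemokine, was 0.35 in PS24 and -0.33 in 30AC5, and 0.0027 in iPF4-2 and -0.14 in iPSCs-w, against 2.28 in PAFSC and 0.44 in PEF. CCL4, another of that kind, was 0.17 in PS24 and -0.0015 in 30AC5, and 0.26 in iPF4-2 and 0.09 in iPSCs-w, against 2.00 in PAFSC and 0.63 in PEF. In both genes PEF lay slightly above all 4 lines. CCL24, which acts on eosinophils through CCR3, was -0.02 in PS24 and -0.06 in 30AC5, and 0.06 in iPF4-2 and -0.07 in iPSCs-w, against 2.41 in PAFSC and -0.13 in PEF, the narrowest range of the 72 genes over the 5 arrays (0.19). CCL25 and CCL27, homing signals for the gut and the skin, ranged over 0.71 and 0.55.

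Among the chemokine receptors all 8 had a positive mean difference from PEF, of 0.00098 to 2.21, where 14744 of 23999 probe sets were also positive. Only CXCR4 and CCRL2 lay above PEF in every line. CCRL2, an atypical receptor that binds chemerin without signalling, was 0.12 in PS24 and 0.79 in 30AC5, and 0.06 in iPF4-2 and 1.84 in iPSCs-w, against 1.31 in PAFSC and -0.48 in PEF. iPSCs-w and 30AC5 were the high lines, 1 from each marker class, and the difference from PEF was 1.18 (SE 0.73, limma adjusted p = 0.604). CCR2, the receptor of CCL2, was 0.20 in PS24 and -0.45 in 30AC5, and 0.13 in iPF4-2 and 0.47 in iPSCs-w, against 1.86 in PAFSC and -0.16 in PEF. CCR7, the receptor of CCL19 and CCL21, was 0.51 in PS24 and 0.08 in 30AC5, and 0.06 in iPF4-2 and -0.61 in iPSCs-w, against 1.90 in PAFSC and -0.29 in PEF. PEF, the highest of the 5 arrays for CCL2 and CCL19, was not the highest for CCR2 or CCR7. CCR1 and CCR3, receptors of CCL5, ranged over 0.45 and 0.70 on the 5 arrays. CCR1 was -0.02 in PS24 and -0.09 in 30AC5, and 0.36 in iPF4-2 and 0.31 in iPSCs-w, against 1.13 in PAFSC and 0.14 in PEF, with a class difference of -0.39 (SE 0.64, limma adjusted p = 1.00). CCR3 was 0.39 in PS24 and -0.04 in 30AC5, and 0.09 in iPF4-2 and -0.30 in iPSCs-w, against 2.64 in PAFSC and 0.02 in PEF. CXCR6 and CCR9, homing receptors of T cells, ranged over 0.995 and 0.42.

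In the IL1 family, IL18 separated the marker classes most of all 72 genes. IL18, which drives interferon gamma production in lymphocytes, was 2.18 in PS24 and 1.61 in 30AC5, and -2.97 in iPF4-2 and -1.33 in iPSCs-w, against 1.33 in PAFSC and 1.99 in PEF. The SSEA1-labelled lines lay on either side of PEF, and iPF4-2 and iPSCs-w lay below every other array. The class difference was 4.05 (SE 0.76, limma adjusted p = 0.398); without PAFSC the SE was 0.60 (limma adjusted p = 0.122). IL18 passed the threshold in 1 setting, when the lowest 40% were left out (limma adjusted p = 0.0468), came to 5.01 under quantile normalization (limma adjusted p = 0.0504), and shrank to 2.12 with low values set to a floor. The class difference moved with marker lists: 8 of 9 measured epithelial genes and 5 of 5 measured pluripotency genes lay lower in both SSEA1-labelled lines (background 20.2%). The remaining epithelial gene, MAL2, lay higher in both, with a class difference of 6.28. The part of these genes in the IL18 difference was not tested. The IL18 receptor chain IL18R1 was 0.30 in PS24 and 0.54 in 30AC5, and 0.01 in iPF4-2 and -0.07 in iPSCs-w, against 2.49 in PAFSC and 0.02 in PEF. The decoy IL18BP was -0.01 in PS24 and 0.10 in 30AC5, and 0.34 in iPF4-2 and -0.37 in iPSCs-w, against 0.98 in PAFSC and -0.18 in PEF. IL18R1 also lay higher in PS24 and 30AC5, with a class difference of 0.45 (SE 0.87, limma adjusted p = 1.00), and IL18BP showed no such order.

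IL1A, an alarmin that signals through IL1R1, was -0.68 in PS24 and -0.05 in 30AC5, and 0.27 in iPF4-2 and 1.63 in iPSCs-w, against 3.03 in PAFSC and 2.06 in PEF. It was highest in the somatic samples, followed by iPSCs-w, and a second probe set gave the same order of lines with PEF at 2.97. The difference was -2.26 (SE 0.70, limma adjusted p = 0.289) against both somatic samples, -1.77 (SE 0.85, limma adjusted p = 0.494) against PEF and -1.31 (SE 0.75, limma adjusted p = 1.00) between the marker classes. The class difference came to -0.63 without iPSCs-w and to -1.99 without iPF4-2. IL1B, its inflammasome-processed relative, was 0.25 in PS24 and 0.04 in 30AC5, and 2.17 in iPF4-2 and -0.14 in iPSCs-w, against 3.02 in PAFSC and -0.37 in PEF. On the arrays other than PAFSC only iPF4-2 was high, and a second probe set repeated this with 1.87 in iPF4-2 and -0.40 to 0.12 in the other 3 lines. IL1B differed from PEF by 0.95 (SE 0.93, limma adjusted p = 0.745), and by 0.42 without iPF4-2. The chosen probe set is of a kind that can match several transcripts. IL1R1, the signalling receptor of both, was -0.42 in PS24 and 0.01 in 30AC5, and -0.01 in iPF4-2 and 0.45 in iPSCs-w, against 2.71 in PAFSC and 1.90 in PEF. Both somatic samples lay above the lines, with a difference of -2.29 (SE 0.50, limma adjusted p = 0.185), and of -1.89 (SE 0.38, limma adjusted p = 0.144) from PEF alone. A second probe set of IL1R1 was 0.14 in PS24 and -0.16 in 30AC5, and 0.18 in iPF4-2 and 0.0034 in iPSCs-w, against 0.63 in PAFSC and -0.07 in PEF, and it differed from PEF by 0.11, so the 2 probe sets disagree in sign.

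In the gp130 and IL12 families, LIF, the gp130 cytokine of mouse embryonic stem cell culture, was -0.87 in PS24 and -0.79 in 30AC5, and -0.25 in iPF4-2 and -0.14 in iPSCs-w, against 1.68 in PAFSC and 0.85 in PEF. All lines lay below both somatic samples, and the SSEA1-labelled lines below the SSEA3/SSEA4-only lines. LIF differed by -1.77 (SE 0.51, limma adjusted p = 0.261) from both somatic samples, by -1.36 (SE 0.39, limma adjusted p = 0.273) from PEF and by -0.63 (SE 0.63, limma adjusted p = 1.00) between the classes. IL6, the inflammatory gp130 cytokine, was -0.97 in PS24 and 2.00 in 30AC5, and -1.17 in iPF4-2 and 0.34 in iPSCs-w, against 2.90 in PAFSC and 1.62 in PEF. 30AC5 lay above PEF, and PS24 and iPF4-2 lay far below it, so the groups overlapped in every comparison, with a difference of -1.57 (SE 1.24, limma adjusted p = 0.689) from PEF. IL11RA, the receptor chain for IL11, was -0.62 in PS24 and -0.60 in 30AC5, and -0.27 in iPF4-2 and -0.04 in iPSCs-w, against 0.24 in PAFSC and 2.04 in PEF. PEF stood alone, and the difference from it was -2.43 (SE 0.33, limma adjusted p = 0.0661); it was -1.52 (SE 0.60, limma adjusted p = 0.341) against both somatic samples and -0.62 against PAFSC with PEF left out (limma adjusted p = 0.159).

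The IL12 side was flatter. IL12A, a subunit of IL12, was -0.45 in PS24 and -1.32 in 30AC5, and -0.23 in iPF4-2 and 0.23 in iPSCs-w, against 1.26 in PAFSC and -0.87 in PEF, with a class difference of -0.88 (SE 0.84, limma adjusted p = 1.00) that came to -0.45 without 30AC5. IL27RA, the IL27 receptor, was 0.26 in PS24 and -0.04 in 30AC5, and -0.54 in iPF4-2 and -0.17 in iPSCs-w, against -0.97 in PAFSC and 0.59 in PEF, where PAFSC was the lowest array. IL12B and IL12RB2, a subunit and a receptor chain of IL12, ranged over 0.51 and 0.46 on the 5 arrays.

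The common gamma chain family and related genes were nearly flat outside PAFSC: of these 11 genes only IL7 had a range over 1. IL7, a lymphocyte survival factor, was 0.11 in PS24 and -0.52 in 30AC5, and -0.18 in iPF4-2 and -0.11 in iPSCs-w, against 1.48 in PAFSC and 0.69 in PEF. Its receptor IL7R was -0.04 in PS24 and 0.50 in 30AC5, and 0.10 in iPF4-2 and -0.26 in iPSCs-w, against 2.93 in PAFSC and 0.02 in PEF, with the second largest excess of PAFSC over the mean of the other 5 arrays among the members (2.87). Both somatic samples lay above the lines for IL7 and only PAFSC did so for IL7R. IL2RG, the shared gamma chain, was -0.12 in PS24 and -0.36 in 30AC5, and 0.59 in iPF4-2 and 0.37 in iPSCs-w, against 0.75 in PAFSC and 0.08 in PEF. The SSEA1-labelled lines lay below PEF and the SSEA3/SSEA4-only lines above it, with a class difference of -0.72 (SE 0.62, limma adjusted p = 1.00). By the chosen probe sets, PAFSC was the highest array for the ligands and partner chains of IL2RG and for the related IL13. Its excess over the mean of the other arrays was smallest for IL21, at 0.53, below the 0.90 to 3.51 of the tag controls. IL2 was 0.31 in PS24 and 0.26 in 30AC5, and 0.43 in iPF4-2 and -0.08 in iPSCs-w, against 2.29 in PAFSC and -0.18 in PEF. IL2RA was 0.54 in PS24 and -0.05 in 30AC5, and 0.42 in iPF4-2 and 0.14 in iPSCs-w, against 1.28 in PAFSC and 0.00033 in PEF. IL15 was 0.17 in PS24 and 0.37 in 30AC5, and 0.06 in iPF4-2 and -0.02 in iPSCs-w, against 2.41 in PAFSC and 0.36 in PEF. In these 3 genes of T and NK cell growth the arrays other than PAFSC spanned 0.61, 0.59 and 0.39. IL4 was 0.03 in PS24 and 0.05 in 30AC5, and 0.14 in iPF4-2 and -0.33 in iPSCs-w, against 1.14 in PAFSC and -0.27 in PEF. IL21 was 0.32 in PS24 and -0.04 in 30AC5, and 0.20 in iPF4-2 and 0.07 in iPSCs-w, against 0.61 in PAFSC and -0.15 in PEF. IL13 was -0.07 in PS24 and -0.01 in 30AC5, and -0.29 in iPF4-2 and 0.26 in iPSCs-w, against 2.38 in PAFSC and -0.05 in PEF. These helper T cell cytokines were likewise flat apart from PAFSC. IL4R, the receptor of IL4, was 0.11 in PS24 and 0.03 in 30AC5, and 0.11 in iPF4-2 and -0.31 in iPSCs-w, against 2.02 in PAFSC and 0.08 in PEF by the chosen probe set. A second IL4R probe set was 0.41 in PS24 and 0.37 in 30AC5, and -0.89 in iPF4-2 and -1.80 in iPSCs-w, against -0.22 in PAFSC and 1.59 in PEF. There PEF was highest and the SSEA3/SSEA4-only lines lowest, with a difference of -2.06 from PEF and of 1.73 between the classes, so the flat value of IL4R depends on the probe set. IL13RA1, a receptor chain of IL13, ranged over 0.26.

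Of the interferon receptors, IFNAR1, a chain of the type I interferon receptor, was 0.21 in PS24 and -0.32 in 30AC5, and -1.53 in iPF4-2 and -0.93 in iPSCs-w, against -0.21 in PAFSC and 1.24 in PEF. IFNAR2, its partner chain, was 0.59 in PS24 and 1.08 in 30AC5, and -0.17 in iPF4-2 and -0.48 in iPSCs-w, against -0.31 in PAFSC and 1.79 in PEF. IFNGR1, the ligand-binding chain for interferon gamma, was -0.29 in PS24 and 0.29 in 30AC5, and -1.003 in iPF4-2 and -2.25 in iPSCs-w, against -2.47 in PAFSC and 0.48 in PEF. In all 3 PEF was the highest array, and among the lines the SSEA1-labelled pair lay above the SSEA3/SSEA4-only pair. The differences from PEF were -1.88 (SE 0.67, limma adjusted p = 0.364) for IFNAR1, -1.53 (SE 0.64, limma adjusted p = 0.426) for IFNAR2 and -1.29 (SE 0.95, limma adjusted p = 0.663) for IFNGR1. Between the classes they were 1.18 (SE 0.73, limma adjusted p = 1.00), 1.16 (SE 0.81, limma adjusted p = 1.00) and 1.63 (SE 1.02, limma adjusted p = 1.00) in the same order of genes. For IFNGR1 the class difference came to 1.003 without iPSCs-w. A second IFNAR2 probe set gave smaller steps of the same sign, -0.68 from PEF and 0.39 between the classes. IL10RB, a chain shared by receptors of the IL10 family, was 0.32 in PS24 and 1.02 in 30AC5, and -0.14 in iPF4-2 and 0.03 in iPSCs-w, against 0.51 in PAFSC and -0.29 in PEF. It too lay higher in PS24 and 30AC5, with a class difference of 0.73 (SE 0.65, limma adjusted p = 1.00), but PEF was the lowest array, with a difference of 0.60 (SE 0.49, limma adjusted p = 0.700) that came to 0.36 without 30AC5. IFNAR2, IL10RB and IFNAR1 neighbour each other in RefSeq's Sscrofa11.1 annotation, as do CCL19, CCL21, CCL27 and IL11RA. In that second group PEF was the highest of the 5 arrays for CCL19 and IL11RA and the lowest for CCL21.

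Of the interferons themselves, IFNG, the type II interferon of T and NK cells, was 0.02 in PS24 and 0.15 in 30AC5, and 4.71 in iPF4-2 and -0.63 in iPSCs-w, against 2.13 in PAFSC and -0.19 in PEF. Among the lines only iPF4-2 was high, above PAFSC and more than 4 log2 units above each other line. The iPS mean was 1.06 ± 2.45 (SD, n = 4), and the difference from PEF was 1.25 (SE 2.07, limma adjusted p = 0.855). Of 18 listed leukocyte and macrophage genes 15 were measured, with a median of 0.23 in iPF4-2, against 0.05 to 0.17 in the other lines, 2.07 in PAFSC and -0.17 in PEF. CD3E, CD4, CD8A and PTPRC, defining leukocyte markers, were 0.55, 0.44, 0.21 and 0.18 in iPF4-2, while SPI1 and CD14 of the same list were -0.90 and -0.10 there. Among the lines CD4 and CD8A were highest in PS24, at 0.82 and 0.30, and CD3E and PTPRC in iPF4-2. AIF1, a macrophage marker, was -1.63 in PS24 and -1.86 in 30AC5, and 3.87 in iPF4-2 and 3.74 in iPSCs-w, against -1.07 in PAFSC and -1.65 in PEF. The others of the list did not share this: CD163, MRC1, TYROBP, FCER1G, CD74, ITGAM and ITGB2 were 0.07 to 0.64 in iPF4-2. CD86 was 0.11 in iPF4-2 and 3.77 in iPSCs-w. The part of leukocytes or macrophages in the IFNG value was not tested. IL18, an inducer of IFNG, had its lowest value in iPF4-2. IFNA1, a type I interferon whose family has near-identical members (cross-matching was not tested), was 0.0023 in PS24 and 0.19 in 30AC5, and 0.27 in iPF4-2 and -0.33 in iPSCs-w, against 2.11 in PAFSC and -0.02 in PEF. IL10 was 0.47 in PS24 and -0.21 in 30AC5, and 0.57 in iPF4-2 and -0.06 in iPSCs-w, against 1.78 in PAFSC and -0.07 in PEF. Both were flat outside PAFSC.

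IL16, IL17A, IL17B, IL34 and IL5 completed the interleukins. IL16, a T cell attractant, was -0.72 in PS24 and 0.47 in 30AC5, and 0.25 in iPF4-2 and 0.78 in iPSCs-w, against 2.06 in PAFSC and 0.05 in PEF. It was the 1 of these 5 with a range over 1, and PS24 was its low array. IL34, a ligand of the CSF1 receptor, was 0.06 in PS24 and -0.37 in 30AC5, and -0.08 in iPF4-2 and -0.28 in iPSCs-w, against 1.72 in PAFSC and 0.06 in PEF. All lines lay below both somatic samples, in PS24 by a small step from PEF, and the mean difference from PEF was -0.23 (SE 0.29, limma adjusted p = 0.800). IL5 and IL17A, cytokines of eosinophil and neutrophil responses, ranged over 0.27 and 0.44. IL17B, a relative of IL17A, ranged over 0.79. It had 3 probe sets, and 1 of the 2 others differed in sign between the classes (-0.27 against 0.16).

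Among the TNF ligands, TNFSF10, the death ligand TRAIL, was 1.62 in PS24 and 1.81 in 30AC5, and 3.13 in iPF4-2 and -0.06 in iPSCs-w, against 0.56 in PAFSC and 0.08 in PEF. PS24, 30AC5 and iPF4-2 lay above both somatic samples and iPSCs-w below them, and the difference from PEF was 1.54 (SE 1.12, limma adjusted p = 0.660). TNF, the founding ligand, was 0.03 in PS24 and -0.60 in 30AC5, and -0.0011 in iPF4-2 and 0.32 in iPSCs-w, against 2.32 in PAFSC and -0.35 in PEF. It was flat outside PAFSC, with a difference from PEF of 0.28 (SE 0.40, limma adjusted p = 0.830). TNFSF4, the OX40 ligand of T cell costimulation, ranged over 0.69. TNFSF13, the plasma cell factor APRIL, was 0.03 in PS24 and 0.01 in 30AC5, and 0.23 in iPF4-2 and -0.35 in iPSCs-w, against 1.56 in PAFSC and 0.01 in PEF.

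The TNF receptors ranged more widely than TNF itself. TNFRSF1A, the widely expressed death-domain receptor of TNF, was 0.55 in PS24 and 0.34 in 30AC5, and -0.45 in iPF4-2 and -0.26 in iPSCs-w, against -0.12 in PAFSC and 2.20 in PEF. TNFRSF1B, the second TNF receptor, was -0.04 in PS24 and -0.05 in 30AC5, and -0.89 in iPF4-2 and -1.01 in iPSCs-w, against 0.04 in PAFSC and 2.01 in PEF. TNFRSF12A, the receptor of TWEAK, was -0.27 in PS24 and 0.96 in 30AC5, and -0.46 in iPF4-2 and -0.32 in iPSCs-w, against 0.0025 in PAFSC and 1.67 in PEF. PEF was the highest array for all 3, and PAFSC lay among the lines or, for TNFRSF1B, just above them. The differences from PEF were -2.16 (SE 0.46, limma adjusted p = 0.164) for TNFRSF1A, -2.50 (SE 0.50, limma adjusted p = 0.140) for TNFRSF1B and -1.69 (SE 0.60, limma adjusted p = 0.361) for TNFRSF12A. In the same 3 genes the SSEA1-labelled lines lay above the SSEA3/SSEA4-only lines, by 0.80 (SE 0.84, limma adjusted p = 1.00), 0.90 (SE 0.78, limma adjusted p = 1.00) and 0.73 (SE 0.79, limma adjusted p = 1.00). For TNFRSF12A that step came to 0.12 without 30AC5 and to 1.35 without PS24. The alternative probe set of TNFRSF12A had the same order of lines and PEF, and -3.11 in PAFSC.

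TNFRSF17 and TNFRSF21 had the reverse order. TNFRSF17, the plasma cell receptor BCMA, was -0.41 in PS24 and -0.17 in 30AC5, and 0.62 in iPF4-2 and 0.48 in iPSCs-w, against 0.75 in PAFSC and -1.62 in PEF. TNFRSF21, a death-domain receptor of neurons and lymphocytes, was -0.47 in PS24 and -1.29 in 30AC5, and 0.71 in iPF4-2 and 0.92 in iPSCs-w, against 1.19 in PAFSC and -1.18 in PEF. For both genes iPF4-2 and iPSCs-w lay above PS24 and 30AC5, with PEF at or near the bottom. TNFRSF17 differed from PEF by 1.75 (SE 0.48, limma adjusted p = 0.255) and between the classes by -0.84 (SE 0.85, limma adjusted p = 1.00), and TNFRSF21 differed between the classes by -1.70 (SE 0.87, limma adjusted p = 1.00). All 5 TNF receptors thus separated the marker classes without overlap, 3 higher (background 21%) and 2 lower (background 20.2%) in the SSEA1-labelled lines.

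**Figure D4:**
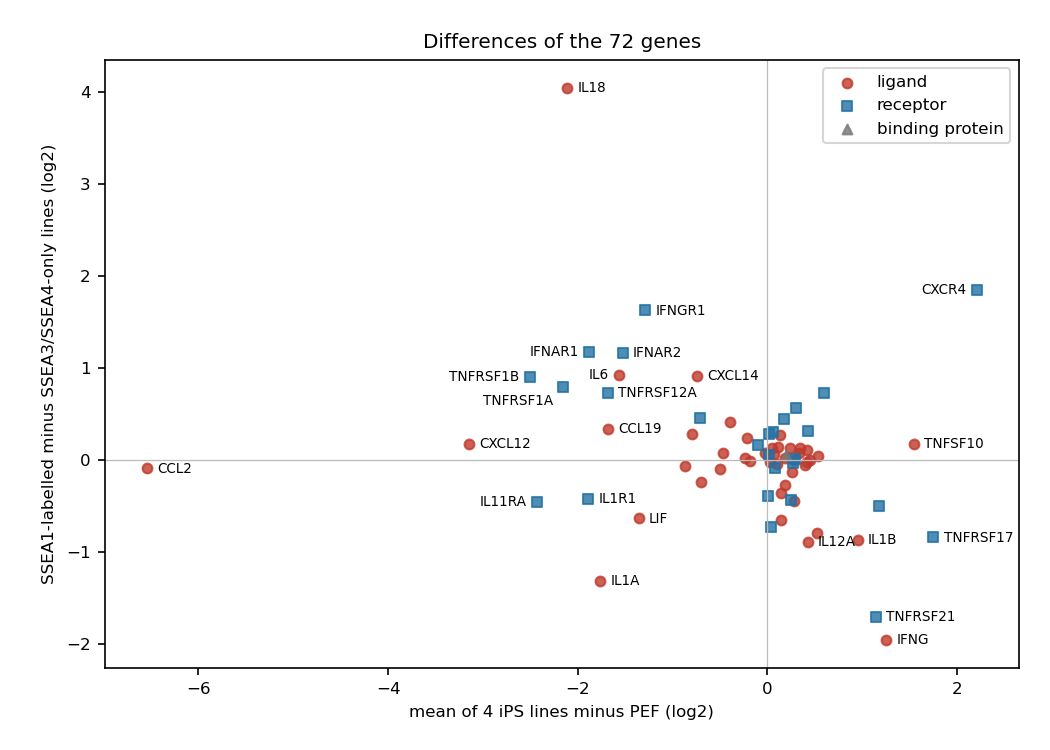
Mean of the 4 iPS lines minus PEF (horizontal, log2) against SSEA1-labelled minus SSEA3/SSEA4-only lines (vertical, log2) for the 72 genes, with ligands as red circles, receptors as blue squares and the binding protein as a grey triangle. Most genes cluster at 0; CCL2 lies at -6.55 on the horizontal axis, IL18 at 4.05 on the vertical axis, and the interferon receptors IFNAR1, IFNAR2 and IFNGR1 lie together at upper left.

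Both colony-stimulating factors were among the members with the largest PAFSC excess. CSF2, the granulocyte and macrophage factor, was 0.27 in PS24 and -0.07 in 30AC5, and 0.35 in iPF4-2 and -0.16 in iPSCs-w, against 2.81 in PAFSC and -0.35 in PEF. CSF3, the granulocyte factor, was 0.07 in PS24 and -0.18 in 30AC5, and -0.23 in iPF4-2 and -0.43 in iPSCs-w, against 2.90 in PAFSC and -0.33 in PEF. On the other 5 arrays they ranged over 0.70 and 0.50. The excess of PAFSC over the mean of those arrays, 2.81 for CSF2 and 3.11 for CSF3, lay within the 0.90 to 3.51 of the tag controls. CSF2 differed from PEF by 0.45 (SE 0.32, limma adjusted p = 0.649).

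The class comparison as a whole had 16 members higher in both SSEA1-labelled lines than in either SSEA3/SSEA4-only line (background 21%) and 8 lower (background 20.2%). Of these, 5 were higher by a mean of at least 1 (background 5.2%), IL18, CXCR4, IFNGR1, IFNAR1 and IFNAR2, and 2 were lower (background 4.66%), TNFRSF21 and IL1A. IL11RA also lay lower in PS24 and 30AC5, with a class difference of -0.45 (SE 0.75, limma adjusted p = 1.00). By kind, 11 of the 27 receptors were higher without overlap and 5 lower, and 5 of the 44 ligands were higher and 3 lower. Without PAFSC, the 10 members with an unadjusted p under 0.05 were CXCR4, IFNAR1, IFNAR2, IFNGR1, IL18, IL2RG, TNFRSF17, TNFRSF1A, TNFRSF1B and TNFRSF21, of which 8 are receptors of the kinds above, 1 is the shared gamma chain and 1 is the ligand IL18.

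Line by line, the members lower than PEF by at least 1 numbered 13 in PS24 (background 9.93%), 12 in 30AC5 (background 8.95%), 16 in iPF4-2 (background 11.2%) and 14 in iPSCs-w (background 11.7%). Those higher by at least 1 numbered 4 (background 8.5%), 5 (background 8.46%), 6 (background 9.41%) and 6 (background 13%) in the same order of lines. CXCR4 and TNFRSF17 were higher by at least 1 in all 4 lines. Within the classes, PS24 was lower than 30AC5 by at least 1 for 5 members (background 6.72%), led by IL6 and CCL2 with -2.96 and -2.02, and higher for 1 (background 4.39%), CXCL14 with 2.83. iPF4-2 was lower than iPSCs-w for 6 (background 5.34%) and higher for 5 (background 4.91%), led by IFNG with 5.34 and TNFSF10 with 3.19. With 1 array per line these differences carry no test.

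PEF and PAFSC were compared as 1 array each, without a test. PEF was lower by at least 2 for 33 members (background 20.1%) and higher by at least 2 for 5 (background 16.3%), CCL2, IFNGR1, CXCR4, TNFRSF1A and IFNAR2. In these 5 genes PEF lay above an array on which most members were high.

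**Figure D5:**
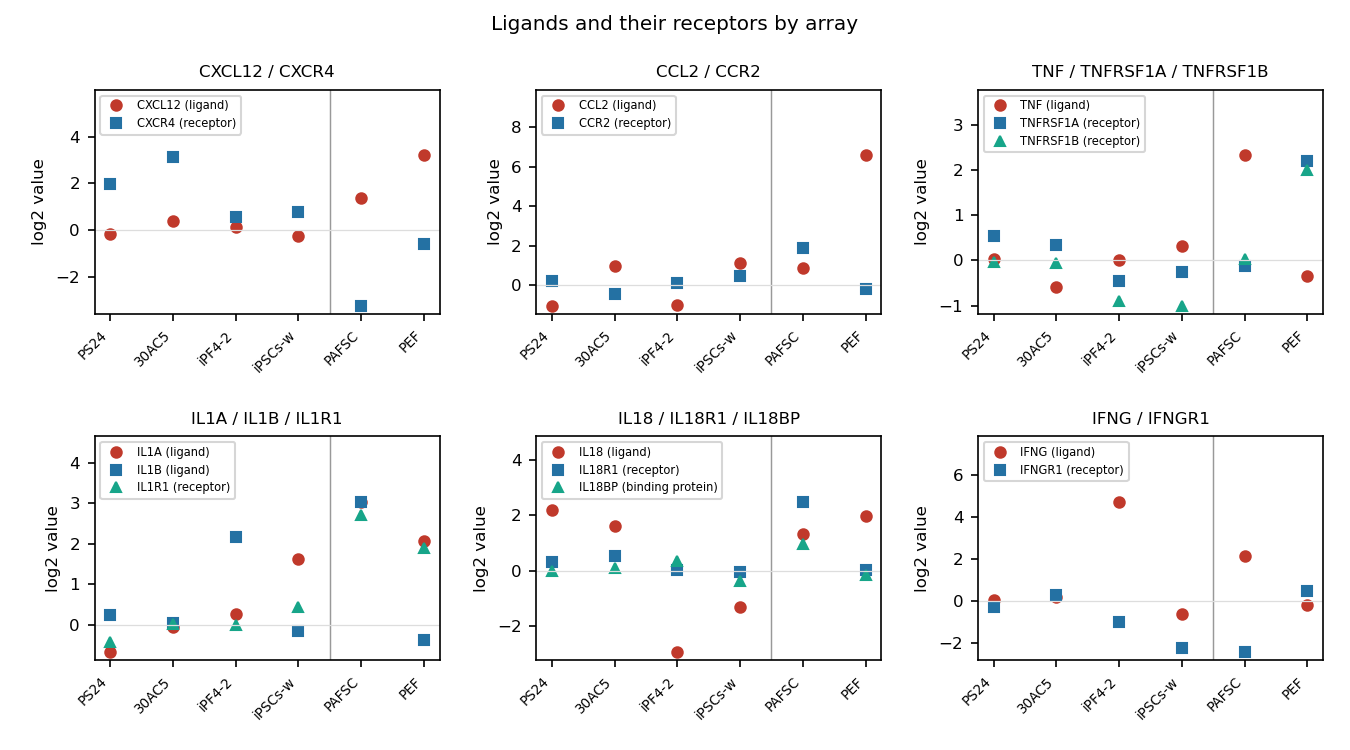
Log2 values on the 6 arrays for ligands and their receptors, 1 panel per signalling pair or group, with the somatic samples right of the vertical line. CXCL12 is highest in PEF at 3.19, where CXCR4 is at -0.59, while IL1A and IL1R1 are both higher in the somatic samples, at 3.03 and 2.71 in PAFSC and 2.06 and 1.90 in PEF.

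Ligands and receptors of 1 pathway were set side by side in the plot of signalling pairs. TNF ranged over 0.92 on the 5 arrays other than PAFSC, against 2.65 for TNFRSF1A and 3.02 for TNFRSF1B. CCL2 ranged over 7.60, against 0.93 for its receptor CCR2. IFNG was high in iPF4-2, where IFNGR1 was -1.003. Levels of ligand and receptor cannot be compared with one another, since each probe set has its own zero.

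The downstream genes were read from lists of signalling components. Of 22 listed JAK and STAT pathway genes 14 were measured, of 22 NF-kappaB genes 9, of 16 TNF receptor adaptors and death signalling genes 6, and of 10 interferon regulators 7. Limma called 0 of them in either direction in each of the 3 comparisons. At an unadjusted p under 0.05 the numbers against both somatic samples were 0, 0, 1 and 1 in that order of lists (background 13.7%). Between the marker classes they were 0 in each list (background 2.84%). The median difference from PEF was 0.17, 0.14, -0.36 and 0.04, beside 0.13 over all probe sets. Between the classes 7 of 7 interferon regulators had a positive class difference (median 0.57), beside 12130 of 23999 probe sets, and 5 of them were higher without overlap (background 21%). IRF1, the interferon-induced transcription factor, was 1.00 in PS24 and 0.51 in 30AC5, and -1.28 in iPF4-2 and -0.49 in iPSCs-w, against -1.05 in PAFSC and 2.14 in PEF. IFNAR1 and IL18 had the same order of the 4 lines.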

How the data were processed

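RNA of 6 samples was hybridised to Affymetrix Pig Genome Arrays, 1 array per sample. The values are relative log2 expression values as deposited by the authors; their software, background correction, normalization and zero were not given in the sources used here. Of 24123 deposited probe sets, 124 array controls were left out of the tests and 23999 were tested. The platform annotation gave 10069 of these 1 symbol, 198 several and 13732 none. Array data carry no read depth, and the number of arrays limits the precision.

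Differences were fitted over all 23999 probe sets with limma 3.58.1 (lmFit and eBayes) in R 4.3.3, with Benjamini-Hochberg adjustment and a threshold of 0.05. Tables and figures were made in Python 3.11.15. The comparisons set the 4 iPS lines against PEF and PAFSC, against PEF alone, and the 2 SSEA1-labelled against the 2 SSEA3/SSEA4-only lines, the last with all 6 arrays in the fit. Simulated data, with the same spread on every array, were used to check the size of the estimated differences. They did not copy the wider spread of PAFSC, so they cannot show how the fits behave with that array. "Without overlap" means that every array of a group lay beyond every array of the other.

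Genes, signalling lists and marker lists were chosen with earlier results of these data known. Full statistics were given for genes past the threshold and for up to 8 per direction and comparison with the largest difference among those without overlap. Values by array were added for the genes with the widest ranges, the largest distance of PAFSC, LIF, TNF, CXCL12, CXCR4 and IL6, and ligand or receptor partners. Some further probe sets and partners were chosen after their values were seen. Alternatives were quantile normalization, median centring, leaving out the lowest 40% of probe sets, a floor at the 25th percentile, a trend in the variance prior, averaging the probe sets of 1 gene, and leaving out each sample. Sequences were not used here.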

Additional observations from a re-analysis of the deposited data

Results flagged for a closer look

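Of 35 genes described in full, 4 had 1 iPS line whose distance from the nearest other line, over the range of the 4 lines, was above Dixon's critical value for groups of 4. Chance gives such a line in about 1 in 20 groups, but the 35 genes were chosen partly for wide ranges in these same values. That rate therefore cannot be used to judge the 4. In iPF4-2 these were IFNG, at 4.71, IL1B, at 2.17, and CCL8, at 0.516. In 30AC5 it was TNFRSF12A, at 0.958. Each was the highest of the 4 lines, and the cause was not tested.

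For CCR1 and IL2RG both SSEA1-labelled lines lay below PEF and both SSEA3/SSEA4-only lines above it. The class difference was -0.392 for CCR1 and -0.723 for IL2RG, with a limma adjusted p of 1.00 for each.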

How the results depend on the processing

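Among the genes described in full, 0 changed direction under any setting tried, each in the comparison that named it. These comparisons had named genes whose groups did not overlap, so leaving out a sample could not change their direction. Against both somatic samples, limma called 0 of the 72 genes, and between 0 and 48 when 1 sample was left out (48 without PEF, 1 without PAFSC). Their median difference of -0.91 became -0.39 under quantile normalization and -0.61 under median centring, and lay between -1.87 (without PEF) and 0.0777 (without PAFSC). The 6 probe sets called there became 1 under median centring, 35 without the lowest 40%, 70 with the floor, 2 with a trend, and 0 to 14303 with 1 sample left out. Against PEF, the 1 call (CXCL12) became 0 under quantile normalization, 0 with averaged probe sets and 0 with any line left out; the median of 0.08 became -0.0054 under quantile normalization, and the 136 probe sets called became 17 under quantile normalization and 0 to 19 with a line left out. Between the marker classes, the 0 calls became 1 without the lowest 40% (IL18). The median of 0.05 lay between -0.0653 (without iPSCs-w) and 0.18 (without iPF4-2) and was -0.0054 without PS24. The 0 probe sets called became 90 under quantile normalization, 44 without the lowest 40%, 4 with only the iPS lines, and 0 to 4 with 1 sample left out. Of the 16 genes named between the classes, the floor made 8 smaller by over 1.5 times and quantile normalization made 9 larger. The cause of these shifts was not tested, except that fewer samples or probe sets enter some fits. No paired analysis was possible because the labels carry no replicate numbers that the groups share.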

Other observations

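Among other cytokine and growth factor genes, SPP1, the secreted matrix protein osteopontin, was 0.52 in PS24 and 1.67 in 30AC5, and -0.18 in iPF4-2 and -1.29 in iPSCs-w, against 0.18 in PAFSC and 5.26 in PEF. Like CCL2, it was highest in PEF by several log2 units. Its difference from PEF was -5.08 (limma adjusted p = 0.156). KIT, the receptor of stem cell factor, was -0.77 in PS24 and 0.70 in 30AC5, and -0.04 in iPF4-2 and 2.50 in iPSCs-w, against 1.01 in PAFSC and -1.18 in PEF. Every line lay above PEF, with the 2 SSEA3/SSEA4-only lines far apart. Of 17 such genes listed 9 were measured, and limma called 0 against both somatic samples and 0 between the marker classes.

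NFKBIA, the NF-kappaB inhibitor that the pathway itself induces, was 2.04 in PS24 and 1.75 in 30AC5, and -0.21 in iPF4-2 and -0.12 in iPSCs-w, against -3.85 in PAFSC and 2.30 in PEF. The SSEA1-labelled lines and PEF were high. IRF9, the DNA-binding subunit of the interferon-activated complex ISGF3, was -0.25 in PS24 and 0.25 in 30AC5, and -0.70 in iPF4-2 and -0.44 in iPSCs-w, against 0.96 in PAFSC and 1.35 in PEF. Both somatic samples lay above all lines.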
